A study of Caenorhabditis elegans with 4 samples.

Results

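The LIN-61 peaks on the X chromosome of Caenorhabditis elegans numbered 900, of 14662 in the authors' peak list for the whole series. They were taken as all peaks of that list placed on X. Chromatin immunoprecipitation followed by sequencing (ChIP-seq) had been carried out on L3 larvae of the wild-type strain N2, grown in liquid culture as mixed populations of males and hermaphrodites, with an affinity-purified rabbit polyclonal antibody raised against a fragment of LIN-61. The series holds 2 LIN-61 ChIP libraries and 2 input DNA libraries, all from the same strain, stage and genotype. The authors deposited a peak list for each ChIP library, here called replicate 1 and replicate 2. The input libraries were not analysed here, and no LIN-61 mutant was set beside the wild type, so background binding by the antibody was not measured. The labels do not say whether the replicates came from separate cultures, so their spread may be technical.

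LIN-61 is a chromatin protein built of malignant brain tumour (MBT) repeats, which recognise methylated histone tails. It belongs to the synMuv B class, genes that act in chromatin-based repression, among other things in the larval vulva. The C. elegans X differs from the autosomes in several known ways. It is held at a reduced transcript output in hermaphrodites by dosage compensation, it is largely silent in the germ line, and its repeat-rich arms are less distinct than those of the autosomes. The left end of X carries its meiotic pairing centre, the region bound by the zinc finger protein HIM-8, at which the homologues pair and begin synapsis. Males carry a single X, and the share of males in these populations was not measured here.

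X held 900 peaks in the whole-series list, 409 in replicate 1 and 796 in replicate 2. These were 6.14%, 4.11% and 5.90% of each list, whereas X made up 17.7% of the sequence. Positions are 1-based coordinates of WormBase WS220, and X was taken to run to position 17718866, the last base in any peak. The median X peak spanned 264 bp (replicate 1), 283.5 bp (replicate 2) and 298.5 bp in the whole-series list. No list states its read depth, so whether unequal depth goes with the unequal peak numbers of the 2 libraries was not tested. With 2 replicates an exact permutation test over samples cannot pass 0.05, and peaks of 1 library are not replicates. No test was run, and the comparisons that follow are descriptions, with the value in each replicate list as their spread.

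The left end stood apart from the rest of X in both replicates. The first 500 kb of X, by peak midpoint, held 133 whole-series peaks, and the other 17.2 Mb held 767. In replicate 1 the numbers were 93 and 316, and in replicate 2 they were 146 and 650. This stretch is 2.82% of X by length and carried 14.8% of the X peaks in the whole-series list, 22.7% in replicate 1 and 18.3% in replicate 2. Peak density was 186 per Mb in the left end in replicate 1, against 18.4 per Mb on the rest of X. Replicate 2 had 292 and 37.7 per Mb, and the whole-series list had 266 and 44.5 per Mb. The fold between the left end and the rest was 8.94 ± 1.70 in the replicate lists (SD, n = 2), with 10.1 in replicate 1, 7.74 in replicate 2 and 5.97 in the whole-series list. An even spread along X would have given a fold of 1. Measured as bases inside peaks, 9.21% of the left end was covered in replicate 1 and 18.2% in replicate 2, against 0.706% and 1.95% of the rest of X.

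**Figure D1:**
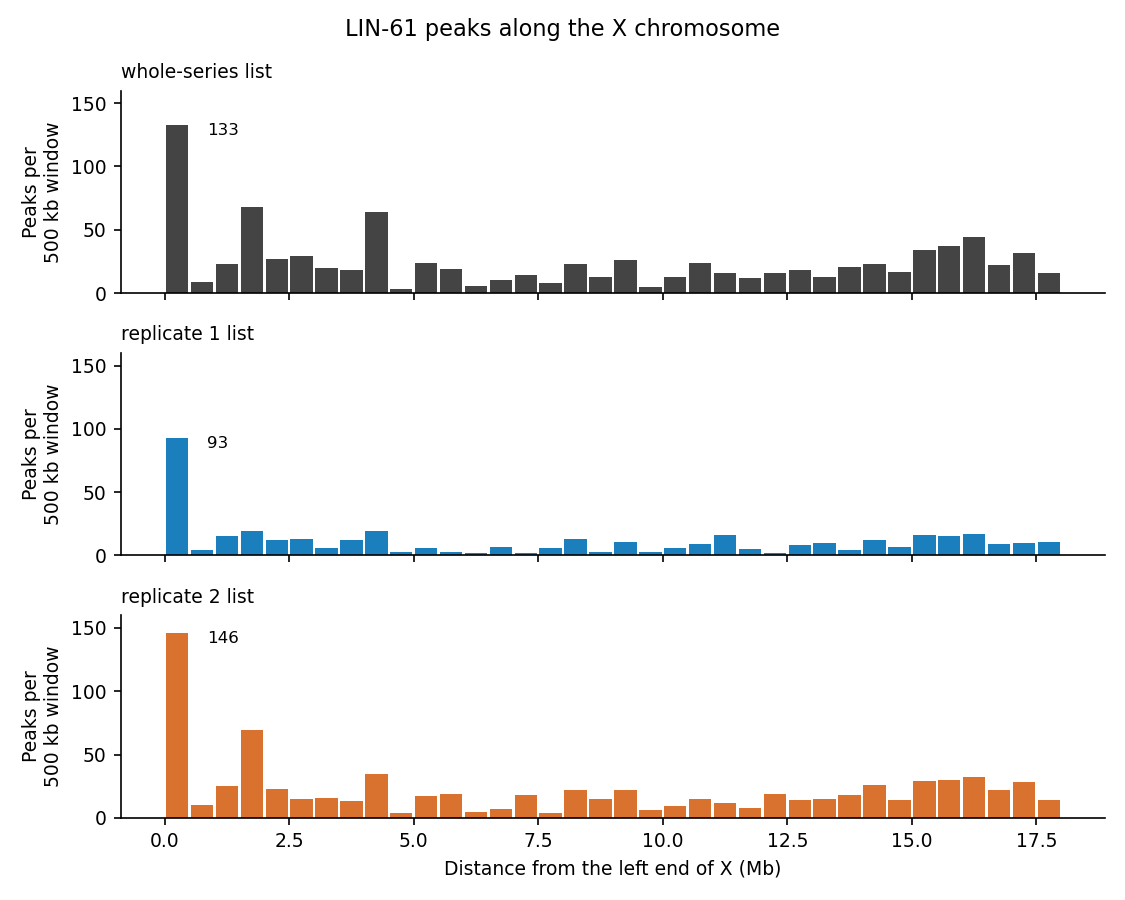
Number of LIN-61 peaks in consecutive 500 kb windows along X, by distance from its left end in Mb, for the whole-series list and each replicate list. The first window holds 133, 93 and 146 peaks, while no later window holds more than 68, 19 and 69; the last bar covers only 218.9 kb.

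Peaks in the left end were also wider and higher in score than those on the rest of X. In replicate 1 they had a median width of 318 bp, against 241.5 bp on the rest of X. In replicate 2 it was 411 bp against 268.5 bp, and in the whole-series list 557 bp against 284 bp. The score deposited with each peak has no stated meaning and serves here only to rank peaks within a list. The median left-end peak stood at percentile 74.6 of all replicate 1 peaks, against percentile 40.2 for the rest of X. In replicate 2 these were percentiles 62.1 and 40.7. Of the left-end peaks, 28.6% were in the top 10% of the whole-series list by score, against 4.04% of the X peaks elsewhere.

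Within the left end, the peaks were packed into the outermost part and thinned out well before 500 kb. Over the successive 100 kb steps of the whole-series list there were 53, 38, 28, 10 and 4 peaks. Replicate 1 had 36, 26, 21, 4 and 6, and replicate 2 had 57, 44, 31, 10 and 4. In each list the count dropped after 300 kb. The stretch from 500001 to 600000 held 4 peaks in the whole-series list, 2 in replicate 1 and 5 in replicate 2. The share of bases in peaks was 36.5% in the first 100 kb in replicate 2 and 18.8% in replicate 1. In the fifth 100 kb it was 2.44% and 1.35%. By midpoint, 93.5% of the left-end peaks of replicate 1 and 95.9% of those of replicate 2 lay within 350 kb of the end, and 6 peaks in each list lay beyond. The decline was uneven. Both replicates had fewer peaks at 100 to 150 kb (6 in replicate 1 and 18 in replicate 2) than at 150 to 200 kb (20 and 26). They again had fewer at 200 to 250 kb (4 and 13) than at 250 to 300 kb (17 and 18).

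**Figure D2:**
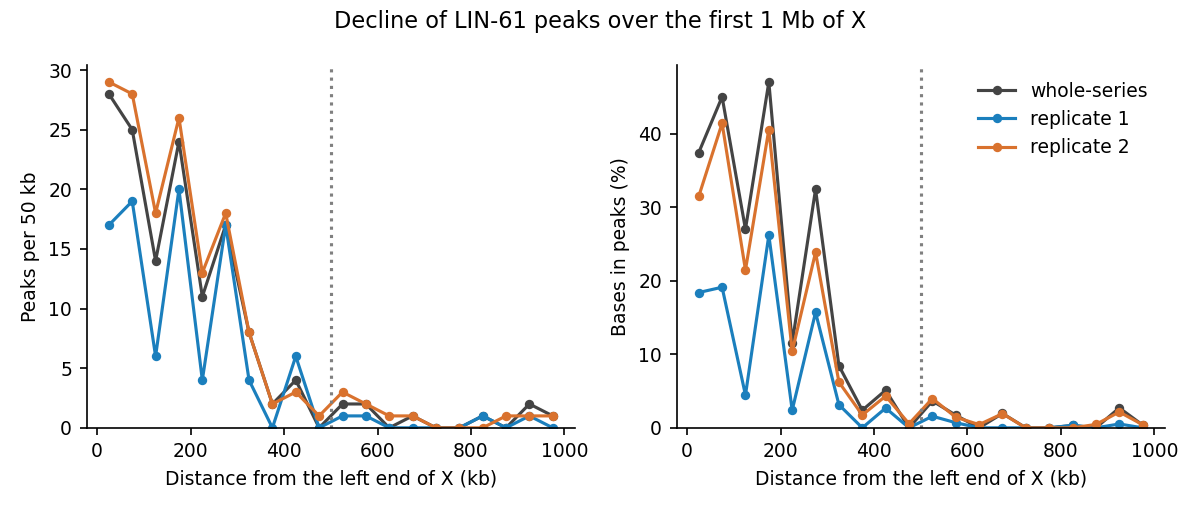
Peaks per 50 kb (left) and percentage of bases in peaks (right) over the first 1 Mb of X, by distance from the left end in kb, for the 3 lists; the dotted line marks 500 kb. All 3 lists fall to a low level by 350 kb and share the dips at 100 to 150 kb and 200 to 250 kb.

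The 500 kb boundary fell in a sparse stretch. The last whole-series peak inside it lay at X:442687-444432, 1746 bp wide with a score of 45.6, and overlapped peaks of both replicates. The first outside lay at X:515612-516032, 421 bp wide with a score of 5.17, and overlapped a replicate 2 peak only. A longer left end had a lower density and hardly more peaks. With a left end of 1 Mb the share of whole-series X peaks inside it was 15.8% and the density fold was 3.13. With 250 kb these were 11.3% and 8.93.

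The left-end peaks formed few, long groups. When whole-series peaks less than 5 kb apart were joined, the 133 peaks fell into 18 groups, of which 5 were single peaks. The 3 largest groups held 62.4% of them. The largest, of 43 peaks, began at the first base of X and ran for 65.9 kb. It contained 24 replicate 1 peaks and 46 replicate 2 peaks. The second, at X:125035-172374, had 28 peaks, with 16 in replicate 1 and 30 in replicate 2. A group of 12 peaks at X:271772-295286 was covered by peaks over 59.8% of its length and had 17 peaks in replicate 1 and 13 in replicate 2. Replicate 1 was without peaks in some shorter groups. At X:213055-220019 and X:254812-264134 it had 0 peaks, whereas replicate 2 had 4 and 5.

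The highest-scoring peak of the whole series lay in the left end, at X:188052-191474. It was 3423 bp wide with a score of 214.0, and its best overlapping peaks scored 80.2 in replicate 1 and 206.5 in replicate 2. Both replicates broke it into 2 peaks. The other 4 of the 5 highest-scoring left-end peaks found in both replicates lay at X:87134-88926, X:180069-182139, X:154710-157114 and X:166630-168432. Their scores were 177.2, 157.9, 143.2 and 128.8, and their widths ran from 1793 to 2405 bp. Of these 5 peaks, 4 fell within a stretch of 36.8 kb, between 154710 and 191474. Scores are not on a shared scale across lists, so the values of different lists are not compared.

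X as a whole had the end with the fewest peaks as well as one of the ends with many. Among the 12 chromosome ends of 500 kb each, the left end of X ranked 4th by peak number in replicate 1 and 2nd in replicate 2. The left end of III led in both, with 131 and 175 peaks. The right end of X ranked last in all 3 lists, with 18 peaks in replicate 1, 31 in replicate 2 and 35 in the whole-series list.

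Outside the left end, peaks were scattered over the whole chromosome at low density. The 34 full windows of 500 kb held a median of 8.5 peaks in replicate 1, from 2 to 19. In replicate 2 the median was 16.5, from 4 to 69. No full window was without a peak in any list. Replicate 2 had more peaks than replicate 1 in 31 of the 34 windows, fewer in 2 and as many in 1. The counts of the replicates had a Spearman's rho of 0.611 across these windows, given as a description, since windows of 1 chromosome share their libraries and neighbouring windows are not independent.

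The middle of X was its sparsest part. When X was cut into 3 equal sections, the density of the middle section was 13.9 per Mb (replicate 1) and 24.9 per Mb (replicate 2). The right section had 20.7 and 44.7 per Mb, and the left section without its first 500 kb had 20.7 and 44.2. Once the left end was set aside, the outer sections thus differed by less than 1 peak per Mb within either replicate, although the right section kept its own end. The SD of 17.0 between the replicates in the right section is a spread between lists, not of this difference. In the whole-series list the order was 55.1 per Mb on the left, 29.1 in the middle and 50.3 on the right. The left value there included one dense group of 39 peaks. The right end was denser than the average outside the left end. Its last 500 kb had densities of 36 per Mb (replicate 1) and 62 per Mb (replicate 2), and 1.51% and 3.75% of its bases lay in peaks.

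The densest window outside the left end was the same in all 3 lists, at X:1500001-2000000. It held 68 whole-series peaks, 19 in replicate 1 and 69 in replicate 2. Its whole-series peaks lay in 31 groups, none with more than 6 peaks, so its count did not rest on 1 cluster. Replicate 1 had an equal count of 19 in the window X:4000001-4500000, where the whole-series list had 64 peaks and replicate 2 had 35. There 39 of the 64 whole-series peaks belonged to 1 group. Of the 68 whole-series peaks in the first of these windows, 47 were found in replicate 2 alone and 9 in both replicates. The emptiest full window of the whole-series list was X:4500001-5000000, with 3 peaks. It had 3 peaks in replicate 1 and 4 in replicate 2, and lay directly beside one of the densest windows.

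The group with the most peaks outside the left end spanned 30.4 kb at X:4026006-4056435. It held 39 whole-series peaks, all of which overlapped replicate 2, but only 2 overlapped replicate 1. In replicate 2 the stretch was covered nearly without a break, by 16 peaks over 94.6% of its length, with scores of 4.82 to 16.6. Replicate 1 had 3 peaks in it, all within its first 2.40 kb, over 2.31% of its length, with scores of 2.81 to 5.90. It was thus a broad block in one library. The whole-series list divided it into pieces with a median width of 398 bp, a median gap of 170.5 bp and a median score of 5.07.

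The other 4 of those groups were shorter. At X:8013795-8028375 both replicates had many peaks, with 9 in replicate 1 and 10 in replicate 2 over 14.6 kb. They covered 38.2% and 41.1% of it, and the highest replicate 1 score there was 51.7. At X:10641186-10658357 the whole-series list had 14 peaks, replicate 1 had 2 and replicate 2 had 10. Of those 14 peaks, 6 overlapped neither replicate. The remaining 2 groups rested mostly on peaks that only the whole-series list held. At X:5046071-5057228, 9 of 10 peaks overlapped neither replicate, and at X:2991592-2997333 it was 5 of 8.

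Peaks outside the left end were more often alone than those inside it. The 767 whole-series peaks formed 392 groups, of which 242 were single peaks, 66 were pairs and 84 had 3 or more. Single peaks made up 3.76% of the peaks in the left end and 31.6% of those elsewhere on X. Groups of 3 or more held 93.2% of the peaks in the left end and 51.2% of those elsewhere on X. The left end was denser, and denser peaks join more easily at a fixed distance. How much of these differences goes with density was not tested. In the left end, 77.8% of the 18 groups had at least 1 peak found in replicate 1 and at least 1 found in replicate 2. Elsewhere on X this held for 30.1% of the 392 groups. A group with more peaks meets this more easily, and single peaks were 5 of the 18 groups and 242 of the 392. The 2 shares were not compared at equal group size, so they do not measure a difference in support. The 3 largest groups held 8.21% of the peaks outside the left end.

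Long stretches of X carried no peak. The longest with no peak in any of the 3 lists ran from 4509815 to 4791588, or 282 kb. The next lay at X:10771904-11035173 (263 kb), X:3370848-3621226 (250.4 kb), X:9636140-9875055 (239 kb) and X:12669319-12854812 (185 kb). In the whole-series list alone the longest were 344.4 kb, from 4447191 to 4791608, and 344.1 kb, from 10691123 to 11035173. The first of them held 0 peaks in replicate 1 and 2 in replicate 2, and the second held 1 and 0. Replicate 1 had a longer gap, of 694 kb from 3077079 to 3770799, within which replicate 2 had 24 peaks.

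Outside the left end, 135 whole-series peaks were found in both replicates, with 54 in the right section of X, 34 in the middle and 47 in the left. Of the 10 with the highest whole-series score among them, 7 lay in the right section, 2 in the middle and 1 in the left. The sections differed less in the share of their peaks in the top 25% of the whole-series list by score, at 13.8%, 10.5% and 10.1%. The first of the 10 was at X:14312518-14313065. It was the narrowest of the 10, at 548 bp, had a score of 169.2, and stood alone, with 21.9 kb to its nearest neighbour. Its replicate peaks, of 520 and 504 bp, were nearly as wide. The second was at X:1795411-1797895, inside the densest window, with a score of 166.4. The third was the widest peak on X, at X:16929649-16944301, 14653 bp long with a score of 148.8. Replicate 2 had it as a single peak of 14598 bp, and replicate 1 had 2 peaks there, the wider 8076 bp long.

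The other 7 of these peaks were 1372 to 3060 bp wide. They lay at X:14723379-14724964, X:12520366-12522140, X:9007133-9009426, X:14362023-14363394, X:16100124-16102147, X:9604753-9607812 and X:16850761-16852264. Their scores ran from 142.7 down to 116.2. Of all 10, 4 had no other whole-series peak within 5 kb, whereas each of the 5 named left-end peaks had one. The next widest peaks on X were found in 1 replicate only. The peak at X:7352318-7361319 was 9002 bp wide with a score of 13.1, and the peak at X:10361069-10369116 was 8048 bp wide with a score of 6.94. Both overlapped replicate 2 peaks and no replicate 1 peak.

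X outside its left end was then set against the autosome centres, the middle of 3 equal sections of each autosome, which are gene-dense and poor in repeats. Even there the autosomes carried more peaks. Density was 18.4 per Mb on X outside the left end, against 44.3 ± 12.5 per Mb in the autosome centres in replicate 1 (SD, n = 5 centres). In replicate 2 it was 37.7 per Mb against 63.6 ± 11.0, and in the whole-series list 44.5 against 73.9 ± 16.3. All 5 centres were denser than X in each list. The sparsest autosome centre had 30.1 per Mb (replicate 1) and 54.1 per Mb (replicate 2). The ratio was 0.414 in replicate 1, 0.593 in replicate 2 and 0.603 in the whole-series list. Since X outside the left end includes its arms, the middle section of X is the closer counterpart, and there the whole-series ratio was 0.394. That section had 13.9 per Mb in replicate 1 and 24.9 per Mb in replicate 2, below the sparsest autosome centre in each. With X as 1 of 6 chromosomes, a permutation over chromosomes could not give a p below 0.167, so none was run and the ordering is a description.

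Empty stretches were correspondingly more frequent on X. Of its 172 full windows of 100 kb outside the left end, 39.0% had no peak in replicate 1, against 14.7% ± 7.1 in the autosome centres (SD, n = 5). In replicate 2 it was 16.3% against 4.22% ± 3.54. Each of these values for X exceeded that of all 5 autosome centres. Within the middle section of X the longest peak-free stretch spanned 464 kb in replicate 1 and 405 kb in replicate 2. In the autosome centres the longest were 444 kb in replicate 1 and 231 kb in replicate 2, over sections of similar length.

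**Figure D3:**
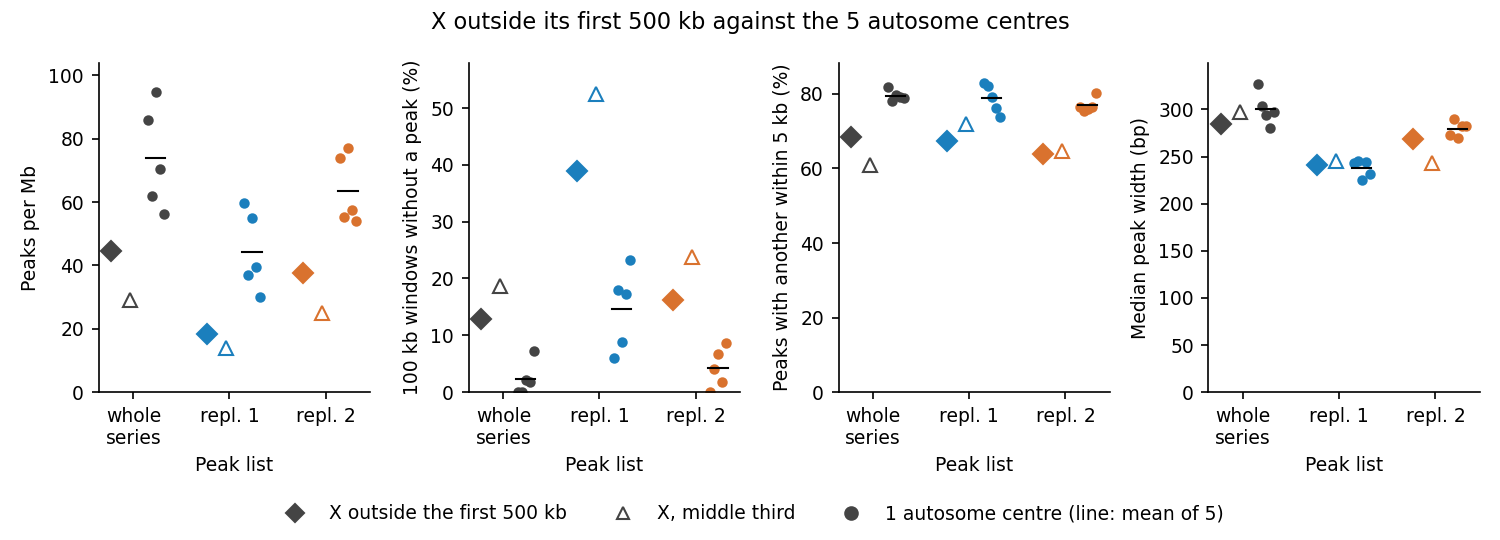
Peak density, share of 100 kb windows without a peak, share of peaks with another within 5 kb and median width, for X outside its first 500 kb (diamonds), the middle section of X (triangles) and each autosome centre (dots, with their mean as a line), in each list. X lies below all 5 centres in density and in the share of peaks with a near neighbour in all 3 lists, whereas its median width lies among them or below them, depending on the list.

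Peaks on X were also less often close to another peak. In replicate 1, 67.4% of peaks outside the left end had another peak within 5 kb, against 78.8% ± 3.9 in the autosome centres (SD, n = 5). In replicate 2 it was 63.8% against 77.0% ± 1.9, and all 5 centres lay above X in both. Groups of 3 or more held 47.8% of these X peaks in replicate 1, against 62.7% ± 4.2 in the centres. For replicate 2 the shares were 41.7% and 58.7% ± 3.0. In replicate 1 the median distance to the nearest peak was 989 bp on X, against 531 ± 103 bp in the centres. In replicate 2 it was 1393 bp against 507 ± 102 bp. The mean spacing was 2.26 times that of the centres in replicate 1 and 1.65 times in replicate 2, and a sparser list has fewer near neighbours even if peaks are placed alike. How much of the difference goes with density alone was not tested. On X the median distance was still far below the mean spacing of 54.5 kb in replicate 1 and 26.5 kb in replicate 2. The same was seen in the autosome centres, whose mean spacing was 24062 bp and 16080 bp, so this was not particular to X. The nearest peak is the closer of the neighbours on either side, so its distance tends to lie below the mean spacing under random placement too.

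In width and score, X outside the left end differed from the autosome centres in no one direction across the lists. In replicate 1 the median peak was 241.5 bp wide on X, against 237.8 ± 8.9 bp in the centres (SD, n = 5). In replicate 2 it was 268.5 bp against 279.4 ± 8.2 bp, so that the replicates differed in sign. The median score percentile was 40.2 against 39.7 ± 1.1 in replicate 1, and 40.7 against 38.4 ± 3.0 in replicate 2. In the whole-series list the score difference had the opposite sign, with 39.5 on X against 40.9 ± 3.5. The share of peaks of 1 kb or wider was 5.70% on X, against 3.32% ± 0.74 in replicate 1, and 9.38% against 8.66% ± 1.69 in replicate 2. It too had the opposite sign in the whole-series list, with 9.52% on X against 12.1% ± 1.5. The share of peaks in the top 25% of their list by score was 15.5% on X against 11.3% ± 1.1 in replicate 1, 13.8% against 14.7% ± 1.8 in replicate 2 and 11.6% against 14.3% ± 1.8 in the whole-series list. The difference in median width was -16.6 bp in the whole-series list, and there it was -92.8 bp once peaks under 500 bp apart were merged and -75.8 bp in the higher-scoring 50%.

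Support by both replicates separated the left end from the rest of X. Of the 133 left-end peaks of the whole-series list, 44.4% (59; exact 95% binomial interval 35.8 to 53.2) overlapped a peak in each replicate by at least 1 bp. Over all chromosomes the share was 37.2%. Of the 767 peaks elsewhere on X it was 17.6% (135; 15.0 to 20.5), against 28.0% ± 4.6 in the autosome centres (SD, n = 5). The lowest centre, that of IV, had 20.9% (17.1 to 25.2), an interval that overlapped that of X outside the left end. The intervals reflect counting error alone, and neighbouring peaks are not independent of each other.

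Most of the missing support was on the side of replicate 1, and a region with fewer replicate 1 peaks offers fewer to overlap. Replicate 1 had 316 peaks on X outside the left end, beside 767 in the whole-series list. It had 1183 beside 1986 in the autosome centres and 93 beside 133 in the left end. How much of the difference in support goes with these numbers was not tested. Outside the left end, 57.8% of the whole-series peaks overlapped replicate 2 alone and 8.60% replicate 1 alone. In the autosome centres these shares were 42.2% ± 3.9 and 11.2% ± 2.4, and over all chromosomes 39.1% and 9.46%. A further 16.0% of these X peaks overlapped neither replicate, against 18.5% ± 3.7 in the centres and 14.3% over all chromosomes. Peaks with support in both had a median score of 15.7 on X outside the left end, and those found in replicate 2 alone had 6.31. In the left end the corresponding medians were 51.7 and 7.14.

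The replicate lists gave the same order of left end, centres and the rest of X. Of the replicate 1 peaks, 89.2% in the left end (83 of 93; interval 81.1 to 94.7) and 56.3% elsewhere on X (178 of 316; 50.7 to 61.9) overlapped a replicate 2 peak. In the autosome centres 62.9% did so (744 of 1183), and over all chromosomes 74.7%. Of the replicate 2 peaks, 45.9% in the left end (67 of 146; 37.6 to 54.3) and 22.9% elsewhere on X (149 of 650; 19.7 to 26.4) overlapped a replicate 1 peak, against 35.9% in the centres (617 of 1721) and 47.1% over all chromosomes. By this last measure the left end was no higher than the genome as a whole. The centre of IV had a lower share of replicate 1 peaks found in replicate 2 than X had, at 53.7%.

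Wide peaks meet a 1 bp overlap more easily, and left-end peaks were wide, so support was also taken within classes of width. Among whole-series peaks of 600 bp or more, 73.3% of those in the left end (44 of 60), 54.2% of those elsewhere on X (84 of 155) and 68.7% of those in the autosome centres (301 of 438) were found in both replicates. Among peaks of 300 to under 600 bp the shares were 34.5% (10 of 29), 17.2% (35 of 204) and 32.2% (176 of 547). Below 300 bp they were 11.4% (5 of 44), 3.92% (16 of 408) and 7.89% (79 of 1001). In each class X outside the left end had the lowest share of the parts compared. The share over all chromosomes was not taken by width, so where it lies beside these shares is not known. For peaks of 600 bp or more the interval was 46.0 to 62.2 for X outside the left end and 64.1 to 73.0 for the pooled centres. At 300 to under 600 bp it was 12.3 to 23.0 and 28.3 to 36.3. These intervals treat peaks as independent, and the spread between centres was not taken by width, so their separation is not a test. The intervals of the left end and of the centres overlapped in each class, which does not show that they were alike.

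**Figure D4:**
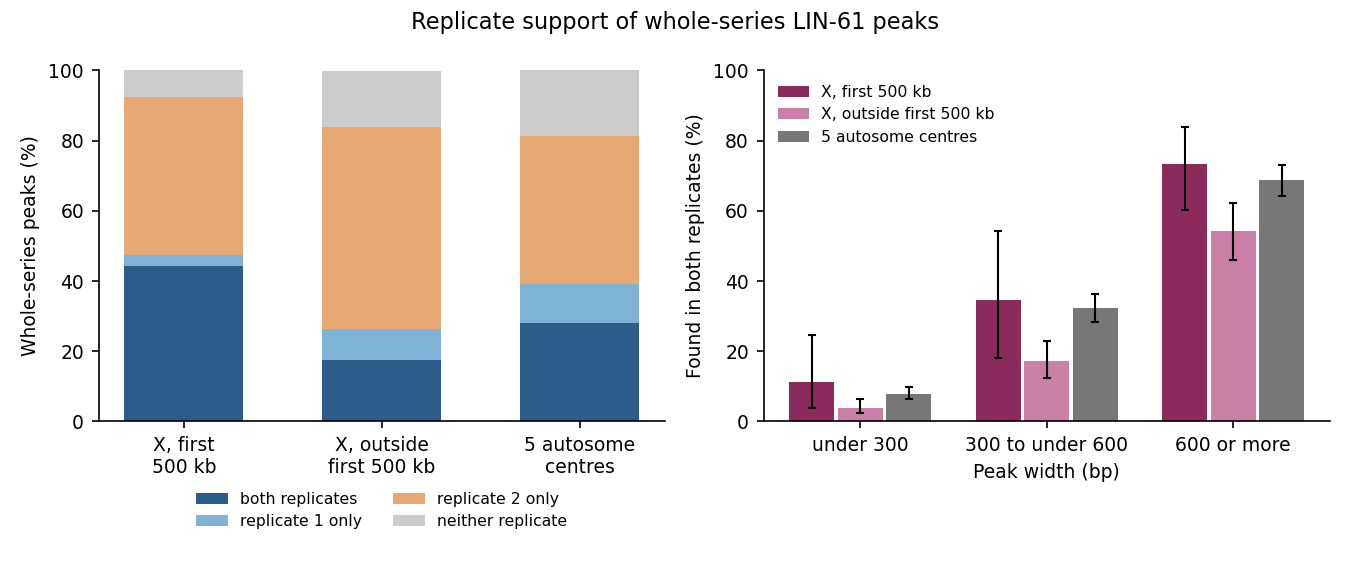
Left, percentage of whole-series peaks that overlapped both replicates, one of them or neither, in the left end of X, elsewhere on X and in the 5 autosome centres pooled. Right, percentage found in both replicates by class of width in bp, with exact 95% binomial intervals; X outside its first 500 kb has the lowest bar in each class, from 3.92% to 54.2%.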

How the data were processed

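Peak lists of 2 LIN-61 ChIP libraries and 1 list of the whole series were used. Peaks were called with MACS on WormBase WS220, per the file headers, and reads were aligned with BWA to ce10, per the submitters' processing notes. Tool versions, the calling threshold, the control and how the whole-series list arose: not given in the sources used here. For every peak the authors deposited its first and last base and a score of unstated meaning. No file gives a read count, so depth is unknown.

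A peak belonged to the section that held its midpoint. The last base in any peak was taken as the end of its chromosome. Analysis used Python 3.11.15 with pandas 2.3.3 and scipy 1.17.1, and the interval functions were tested on simulated data. Groups joined peaks less than 5 kb apart. Named were the 5 left-end peaks and the 10 other X peaks with the highest scores found in both replicates, the 5 largest groups elsewhere on X with peaks of both replicates, and the 5 longest gaps. The next widest peaks, the groups of the left end and the comparison of chromosome ends were picked after their values were seen. The members, boundaries and rules were chosen with earlier results of these data known. Alternatives covered the length of the left end, the definition of a centre, merging, score, overlap and neighbour distance. The gene table at hand is on another build, so peaks were not assigned to genes and no sequences are given.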

Additional observations from a re-analysis of the deposited data

How the results depend on the processing

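Values are from the whole-series list unless a list is named, and the cause of each change was not tested. With a replicate left out, the other replicate's list gave 4.11% to 5.90% for the share of peaks on X, 7.74 to 10.1 for the density fold of the left end over the rest of X, and 18.3% to 22.7% for the share of X peaks in the left end (whole series 6.14%, 5.97 and 14.8%). For X outside the left end against the autosome centres, it gave a density ratio of 0.414 to 0.593 (whole series 0.603), -10.9 to 3.7 bp for the difference in median width (-16.6), -13.2 to -11.4 percentage points for peaks with another within 5 kb (-11.1), and 0.48 to 2.24 for the score percentile (-1.43). Width changed sign in replicate 1 and score percentile in both replicates, so neither has a direction here.

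The fold of the left end was 8.93 with a left end of 250 kb, 3.13 with 1 Mb, 10.8 in the higher-scoring 50% and 9.31 by covered bases. The share of X peaks in the left end was 11.3% with 250 kb, 23.8% in the higher-scoring 50% and 21.3% of covered bases. With the middle section of X alone, the density ratio was 0.394, the width difference -3.1 bp and the near-neighbour difference -18.5 points. The replicate lists did not share this larger near-neighbour difference. There 72.0% (replicate 1) and 64.6% (replicate 2) of middle-section peaks had another within 5 kb, against 67.4% and 63.8% on X outside the left end. The autosome centres had 78.8% and 77.0%. The width difference was -92.8 bp after merging of peaks under 500 bp apart and -75.8 bp in the higher-scoring 50%. The near-neighbour difference was -13.4 with centres as the middle 50%, -14.3 after merging, -18.2 in the higher-scoring 50%, -5.31 at 20 kb and -12.6 without the peaks at 4.0 to 4.1 Mb. The last of these was chosen after seeing the data. With centres as the middle 50% the score percentile difference was -3.39.

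Support in both replicates fell under stricter overlap, to 20.3% in the left end and 6.26% elsewhere on X when 50% of both peaks had to be shared, and to 30.1% and 11.2% by midpoint. Elsewhere on X it was 22.0% after merging and 21.7% in the higher-scoring 50%. Merging and the score cut were applied to the replicate lists as well. Replicate peaks below the median score of their own list thus could not give support under that cut. Its difference from the autosome centres was -4.96 points with 50% of both peaks, -5.82 by midpoint, -14.2 after merging and -5.54 in the higher-scoring 50% (whole series -10.4). The density fold stayed above 1, the density ratio below 1 and the near-neighbour and support differences below 0 under every alternative run. No paired analysis was possible because the input libraries, whose replicate numbers match those of the ChIP libraries, were not analysed here; the comparisons of regions were each made within 1 list. Unknown read depth limits any reading of what replicate 1 lacks.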
